A study of Homo sapiens with 6 samples.

Results

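The 10 genes described here encode the core machinery of human microRNA biogenesis and silencing: the Argonautes AGO1, AGO2, AGO3 and AGO4, the GW182 proteins TNRC6A, TNRC6B and TNRC6C, the nuclear processing pair DROSHA and DGCR8, and DICER1. They were chosen by name, and all 10 were found among the 20169 gene rows and passed the low-count filter, within 13103 genes tested. RNA-seq of polyadenylated RNA was deposited for 6 libraries of HEK293T cells, a line derived from human embryonic kidney that expresses a viral large T antigen. The lines were monoclonal and carried a landing pad, a genomic docking site for a reporter gene, with the PGK promoter (the promoter of the glycolytic gene PGK1) in 3 libraries and the CAG promoter (a strong composite promoter with an actin part) in the other 3. No other agent, allele or time point is labelled, and both groups share the parental line and the growth medium.

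The labels tell apart 1 line per promoter, so promoter and clone cannot be told apart in any value below. They do not say that the libraries came from separate cultures, and p-values then reflect only how far these samples vary, which may be technical. Total counts were 21896246 to 23442542 per library. No pair of libraries was alike within sampling noise, with a chi-square per degree of freedom of 3.42 or more between libraries of a line and 50.8 or more between lines. Of the genes that HEK293 lines are known to express, VIM was at 455 and 631 CPM in PGK and CAG (CPM is read counts per 1000000 of the library size after TMM scaling), KRT18 at 52.2 and 57.1, NES at 6.44 and 11.9, KRT8 at 1.09 and 5.35 and PAX2 at 1.55 and 1.27. PTPRC, CD3E, ALB and ADIPOQ, which mark leukocytes, T cells, hepatocytes and adipocytes, had at most 1 count in any library. No gene row was matched by name to LHX1 or PECAM1, so these were not analysed here. In bulk RNA, fewer cells that express a gene and less RNA of it per cell cannot be told apart.

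A microRNA gene is transcribed into a long primary RNA, from which the Microprocessor (the nuclease DROSHA with its RNA-binding partner DGCR8) cuts a hairpin in the nucleus. DICER1 trims the exported hairpin to a short duplex, and an Argonaute keeps a single strand of it as a guide to sites that lie mostly in 3'UTRs. The bound Argonaute holds a GW182 protein, which recruits deadenylases and so brings about repression and decay of the mRNA. This is the main route by which microRNAs act on the 3'UTRs that the series concerns.

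The nuclease side of the pathway differed little between the lines, while members of both effector families moved in opposite directions. Of the 10 genes, 2 were higher in CAG (AGO3 and TNRC6A) and 2 lower (AGO2 and TNRC6B) at an adjusted p under 0.05 in edgeR's quasi-likelihood test, adjusted by Benjamini-Hochberg over all tested genes. That is 40.0% of the members, against 62.0% of all tested genes, of which 31.6% were higher and 30.4% lower. The same 4 genes were the members whose 3 libraries of a line all lay on 1 side of the 3 of the other, as was the case for 65.5% of all tested genes. Calls were therefore no more frequent among these genes than in the transcriptome as a whole. The median log2 fold change of the 10 genes was -0.01, and that of all tested genes was -0.00.

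**Figure D1:**
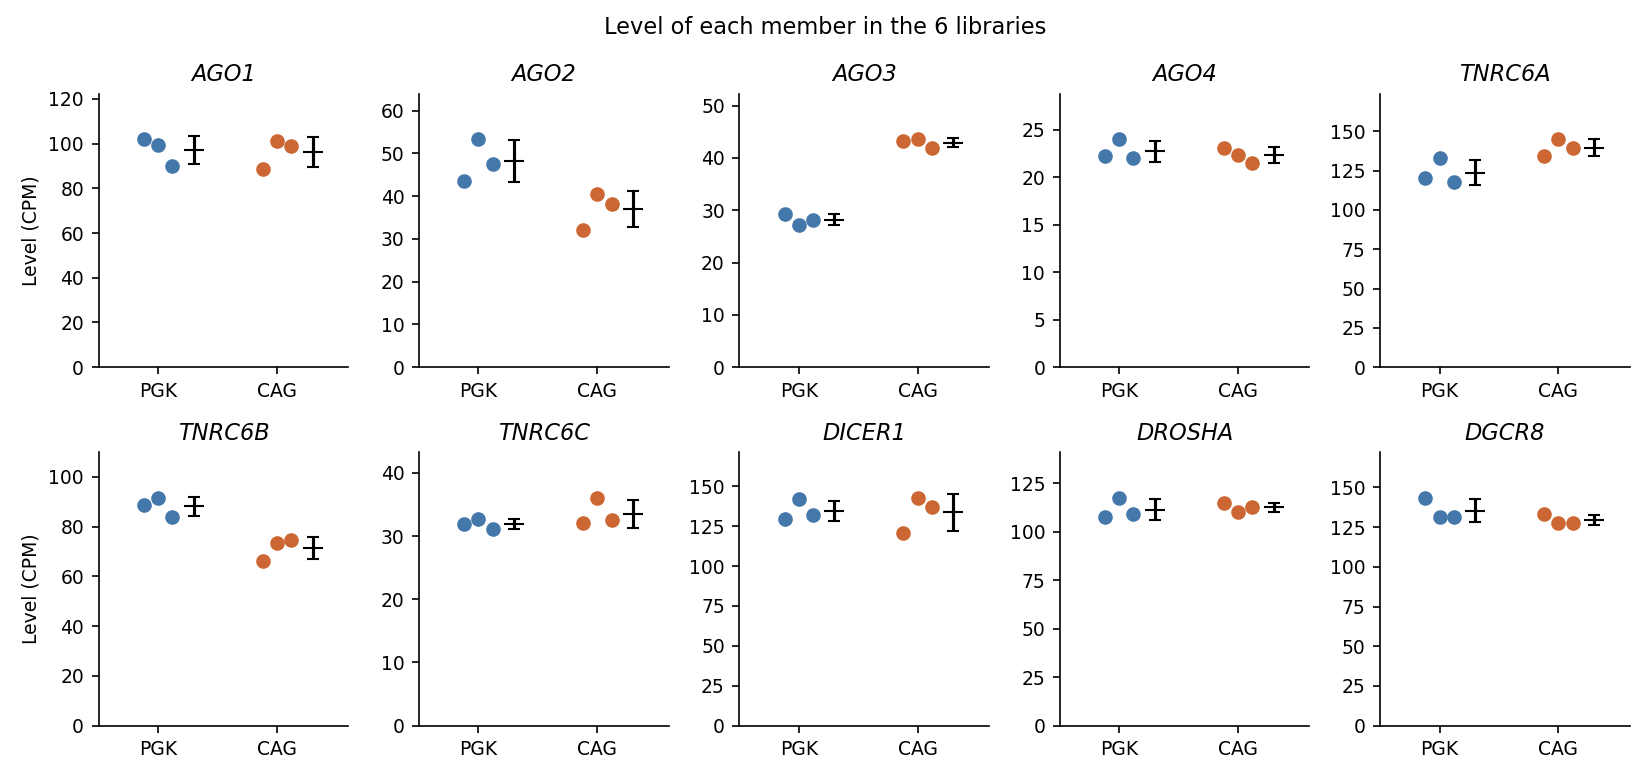
Level of each of the 10 genes in CPM (vertical axis from 0, a separate scale for each gene) in the 3 PGK and 3 CAG libraries (points), with the mean and SD of each line (black). AGO3 and TNRC6A lay higher in every CAG library than in any PGK library, AGO2 and TNRC6B lower, and the groups overlapped for the other 6 genes.

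Among the Argonautes, AGO3 had the largest difference of the 10 genes. AGO3 (ENSG00000126070, chromosome 1) is a guide-binding Argonaute that retains the catalytic residues of a slicer but is a poor one. Its level was 29.2, 27.2 and 28.1 CPM in the PGK libraries and 43.2, 43.6 and 41.9 CPM in the CAG libraries. The groups were far apart, and the libraries within each line lay close together. The log2 fold change of AGO3, CAG over PGK, was 0.61 (SE 0.06), a 1.52-fold higher level, with an adjusted p of 6.2e-08 in edgeR's quasi-likelihood test. The direction and the call of AGO3 held in every fit against no change, with a log2 fold change of 0.58 to 0.64. Against a fold of 1.5, AGO3 was not called, with an adjusted p of 0.846 in edgeR.

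AGO2 (ENSG00000123908, chromosome 8), the efficient slicer of the family and the Argonaute used in RNA interference, was lower in the CAG line. It stood at 43.6, 53.4 and 47.5 CPM in PGK and at 32.2, 40.4 and 38.3 CPM in CAG. The highest CAG library lay just below the lowest PGK library, and both lines showed a wider spread than for AGO3. The log2 fold change of AGO2 was -0.38 (SE 0.09, 95% interval -0.56 to -0.20), with an adjusted p of 0.00125 in edgeR's quasi-likelihood test.

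AGO1 and AGO4 are guide-binding Argonautes with little or no slicing activity of their own on ordinary targets. AGO1 (ENSG00000092847, chromosome 1) was at 102, 99.3 and 90.2 CPM in PGK and at 88.8, 101 and 99.1 CPM in CAG. AGO4 (ENSG00000134698, chromosome 1) was at 22.2, 24.0 and 22 CPM in PGK and at 23.1, 22.4 and 21.5 CPM in CAG. The groups overlapped for both genes. The 95% interval of the log2 fold change was -0.14 to 0.11 for AGO1 and -0.17 to 0.12 for AGO4, which leaves out changes of the size seen for AGO2 or AGO3. The adjusted p in edgeR was 0.880 for AGO1 and 0.751 for AGO4.

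**Figure D2:**
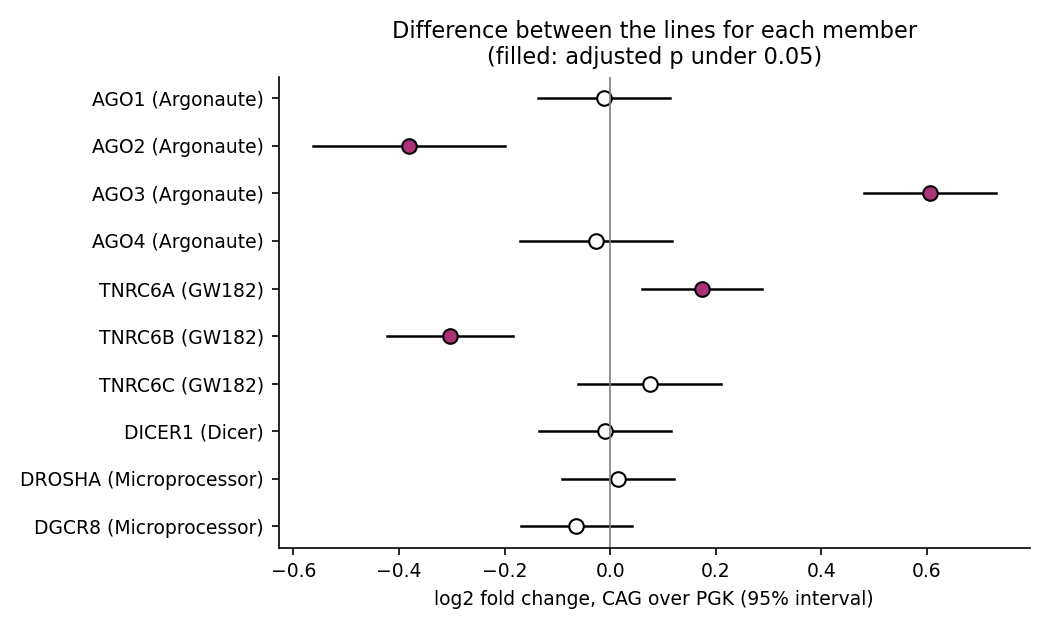
Log2 fold change of each gene, CAG over PGK (horizontal axis), with its 95% interval from the edgeR fit, by family; filled points passed an adjusted p of 0.05. AGO3 at 0.61 and AGO2 at -0.38 lie farthest from 0 on either side, and the intervals of DICER1, DROSHA and DGCR8 all include 0.

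Since a ratio of 2 genes within a library needs no scaling between libraries, the make-up of the family was also compared by ratios of raw counts. AGO3 had fewer counts than AGO2 in every PGK library, at 628 against 937, 606 against 1187 and 641 against 1083. It had more counts than AGO2 in every CAG library, at 973 against 726, 1029 against 954 and 999 against 912. The AGO3 to AGO2 count ratio was thus 0.591 ± 0.0799 in PGK and 1.17 ± 0.146 in CAG (SD, n = 3 each), a 1.98-fold shift with no overlap between lines. In an exact two-sided permutation test its p was 0.1, the smallest that 3 against 3 libraries can give, and 0.157 after Benjamini-Hochberg adjustment over the 11 ratios tested, so no ratio could pass 0.05. The AGO1 to AGO4 ratio was 4.28 ± 0.274 in PGK and 4.33 ± 0.421 in CAG, with overlapping groups. Its exact permutation p was 0.9, or 0.990 adjusted.

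Levels of different genes were set side by side per kilobase of their merged exons, which include annotated 3'UTRs of unlike length. In the transcript with the longest coding sequence, the 3'UTR had 16755 bases for AGO3, 11888 for AGO2, 10921 for AGO1 and 4285 for AGO4. Which 3'UTR lengths were in use was not measured, so order and shares per kilobase, here and below, are uncertain. As mean CPM, AGO2 was at 48.1 in PGK and 37.0 in CAG, above AGO4 at 22.7 and 22.3. Per kilobase, AGO1 was the highest Argonaute in both lines, at 7.0 ± 0.446 CPM per kb in PGK and 6.94 ± 0.477 in CAG (SD, n = 3). In PGK it was followed by AGO4 at 3.13 ± 0.151 and AGO2 at 3.04 ± 0.309 CPM per kb, which overlapped (and changed places with the length of the longest transcript), and then by AGO3 at 1.33 ± 0.0477. In CAG the order of these levels was the same, but AGO2 at 2.33 ± 0.269 and AGO3 at 2.03 ± 0.0413 CPM per kb now overlapped. The share of AGO3 in the summed level of the 4 genes was 9.20% ± 0.594 in PGK and 14.1% ± 0.711 in CAG. The share of AGO2 was 21.0% ± 1.77 in PGK and 16.2% ± 1.15 in CAG, while AGO1 held 48.3% and AGO4 21.6% and 21.4%. The sum itself was 14.5 ± 0.634 CPM per kb in PGK and 14.4 ± 0.673 in CAG, with overlapping libraries.

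The PIWI clade of the Argonaute superfamily, which acts with piRNAs in germ cells, was nearly silent in both lines. PIWIL1 had 0 counts in every library. PIWIL2, PIWIL3 and PIWIL4 had means of 0.0150, 0.0150 and 0.255 CPM in PGK and 0.0998, 0 and 0.187 CPM in CAG, and none of the 4 genes passed the low-count filter.

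The GW182 proteins are scaffolds whose tryptophan-containing repeats bind Argonaute and deadenylase complexes. TNRC6B (ENSG00000100354, chromosome 22) was lower in the CAG line, at 66.3, 73.4 and 74.4 CPM against 88.8, 91.6 and 84.0 CPM in PGK. The groups did not overlap. Its log2 fold change was -0.30 (SE 0.06), with an adjusted p of 1.4e-04 in edgeR's quasi-likelihood test. TNRC6A (ENSG00000090905, chromosome 16) was higher, at 134, 145 and 139 CPM in CAG against 120.3, 133 and 118 CPM in PGK. The lowest CAG library lay only just above the highest PGK library. Its log2 fold change was 0.17 (SE 0.05), with an adjusted p of 0.00938 in edgeR, and the call was lost without PGK replicate 3 (adjusted p = 0.0657) and without CAG replicate 2 (adjusted p = 0.0586). TNRC6C (ENSG00000078687, chromosome 17), the third paralogue, was at 31.9, 32.7 and 31.1 CPM in PGK and 32.0, 36.1 and 32.6 CPM in CAG. These groups overlapped, and the 95% interval of its log2 fold change was -0.06 to 0.21 (adjusted p = 0.326 in edgeR). TNRC6C shares 12.9% of its exon bases with the antisense gene TNRC6C-AS1, and its level is uncertain, because how strand was handled in counting is not known here.

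The TNRC6A to TNRC6B count ratio was 1.35, 1.45 and 1.40 in the PGK libraries and 2.03, 1.98 and 1.87 in the CAG libraries. No library of a line came near those of the other, and the ratio was 1.40-fold higher in CAG (exact two-sided permutation p = 0.1, the smallest possible, and 0.157 adjusted). The TNRC6B to TNRC6C ratio was 2.76 ± 0.0559 in PGK and 2.13 ± 0.135 in CAG (SD, n = 3), also without overlap and with the same exact p. The TNRC6A to TNRC6C ratio overlapped between the lines, at 3.88 ± 0.168 and 4.16 ± 0.133, with an exact permutation p of 0.2 and an adjusted value of 0.275. Per kilobase of exon, TNRC6A was the highest of the 3 genes in both lines and TNRC6C the lowest. Of the summed level, TNRC6A made up 56.8% ± 0.900 in PGK and 62.1% ± 0.461 in CAG, and TNRC6B 26.2% ± 0.510 and 20.5% ± 0.723. These shares depend on the transcript length used, and on the longest transcript TNRC6A held 64.4% and 69.2%. The sum of the 3 genes was 16.8 ± 0.875 CPM per kb in PGK and 17.4 ± 0.777 in CAG, with overlapping libraries.

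**Figure D3:**
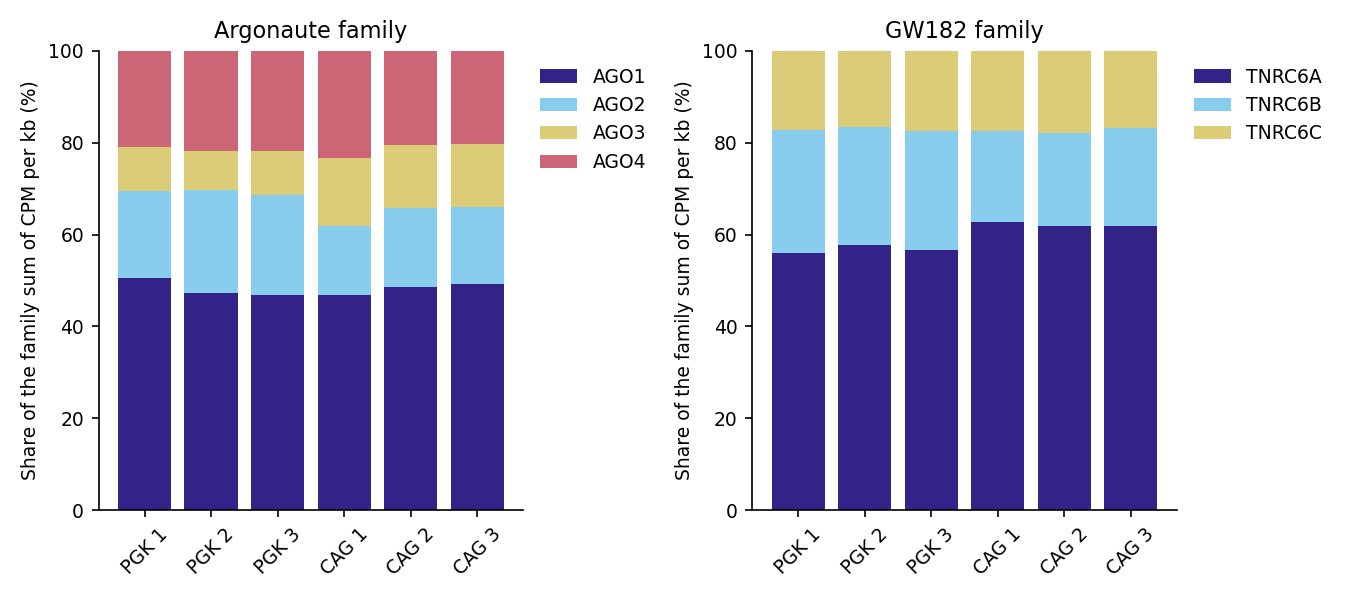
Share of each gene in the summed CPM per kb of exon of its family (vertical axis, percent) in each of the 6 libraries (bars), for the Argonautes (left) and the GW182 genes (right). The AGO3 band is wider in the CAG libraries (14.1% on average against 9.20%) and the AGO2 and TNRC6B bands are narrower, while the AGO1 share averages 48.3% in both lines.

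None of the 3 processing genes passed the test. Per kilobase of merged exons DGCR8 and DROSHA had the highest levels of the 10 genes in both lines, followed by DICER1, which overlapped TNRC6A in CAG and lay below it in both lines when the longest transcript gave the length. DROSHA (ENSG00000113360, chromosome 5), the nuclear nuclease, was at 108, 118 and 109 CPM in PGK and 115, 110.2 and 113 CPM in CAG. DGCR8 (ENSG00000128191, chromosome 22), which recognises the hairpin and stabilises DROSHA, was at 144, 131 and 131 CPM in PGK and 133, 128 and 128 CPM in CAG. DGCR8 shares 7.19% of its exon bases with an antisense gene, so its level is uncertain for the same reason as that of TNRC6C. DICER1 (ENSG00000100697, chromosome 14), the cytoplasmic nuclease, was at 129.7, 142 and 132 CPM in PGK and 121, 143 and 137 CPM in CAG. All 3 pairs of groups overlapped. The 95% intervals of the log2 fold change were -0.09 to 0.12 for DROSHA, -0.17 to 0.04 for DGCR8 and -0.14 to 0.11 for DICER1, and the adjusted p in edgeR was 0.818, 0.285 and 0.893. Each interval leaves out the change seen for AGO3. The DGCR8 to DROSHA count ratio was 1.22 ± 0.110 in PGK and 1.15 ± 0.0160 in CAG (SD, n = 3; exact permutation p = 0.5, adjusted 0.611). The DICER1 to DROSHA ratio was 1.21 ± 0.00200 in PGK and 1.19 ± 0.123 in CAG (exact permutation p = 1, adjusted 1).

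The DGCR8 mRNA is itself a Microprocessor substrate, since hairpins that lie in its exons are cut by the complex it encodes. Of the microRNAs listed for these hairpins, miR-1306-5p is left out. Shown are miR-3618 and miR-1306-3p, because cleavage of their hairpins would act on the DGCR8 mRNA counted here. RefSeq (GRCh38.p14) places both on the plus strand inside the DGCR8 gene, with the mature strands at chr22:20085797-20085818 for miR-3618 and chr22:20086112-20086129 for miR-1306-3p. The capitals mark the seed, bases 2 to 8.
miR-3618: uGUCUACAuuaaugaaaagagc
miR-1306-3p: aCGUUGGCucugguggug
These hairpin genes share 88 and 85 bases with DGCR8 exons in GENCODE 29. Neither microRNA was measured, as the libraries hold polyadenylated RNA counted per gene.

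AGO4, AGO1 and AGO3 lie side by side on chromosome 1 on the same strand, with no other tested gene between them, yet AGO3 alone of the 3 passed the test. The AGO3 to AGO1 count ratio was 0.287, 0.274 and 0.311 in the PGK libraries and 0.486, 0.431 and 0.423 in the CAG libraries, without overlap (exact two-sided permutation p = 0.1, the smallest possible, and 0.157 adjusted). Beyond AGO4 the next tested gene was CLSPN, a mediator of the replication checkpoint, with a log2 fold change of 0.00 (SE 0.05). Beyond AGO3 it was TEKT2, a structural gene of cilia and flagella, with a low level of 0.120 CPM in PGK against 0.697 in CAG. Its log2 fold change was 2.49 (SE 0.45), with an adjusted p of 1.1e-04 in edgeR's quasi-likelihood test. The 10 tested genes on each side of AGO3 had a median log2 fold change of -0.00, with 5 called higher and 3 lower. AGO3 thus stood 0.61 above the median of its neighbours.

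AGO2, in contrast, lay among genes that were mostly lower. Of the 20 tested genes nearest to it on chromosome 8, 17 were called lower and 1 higher, with a median log2 fold change of -0.60. AGO2 at -0.38 was above that median by 0.22, so a lower level in CAG was not particular to AGO2 there. Whether the neighbourhood has a part in the AGO2 difference was not tested. The neighbours of TNRC6A and TNRC6B had medians of 0.07 and -0.09. With 5 tested genes on each side these 2 medians were -0.02 for TNRC6A and 0.04 for TNRC6B, so their signs depend on the window. Around the 6 genes that were not called, the medians ran from -0.15 for DROSHA to 0.07 for DGCR8.

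**Figure D4:**
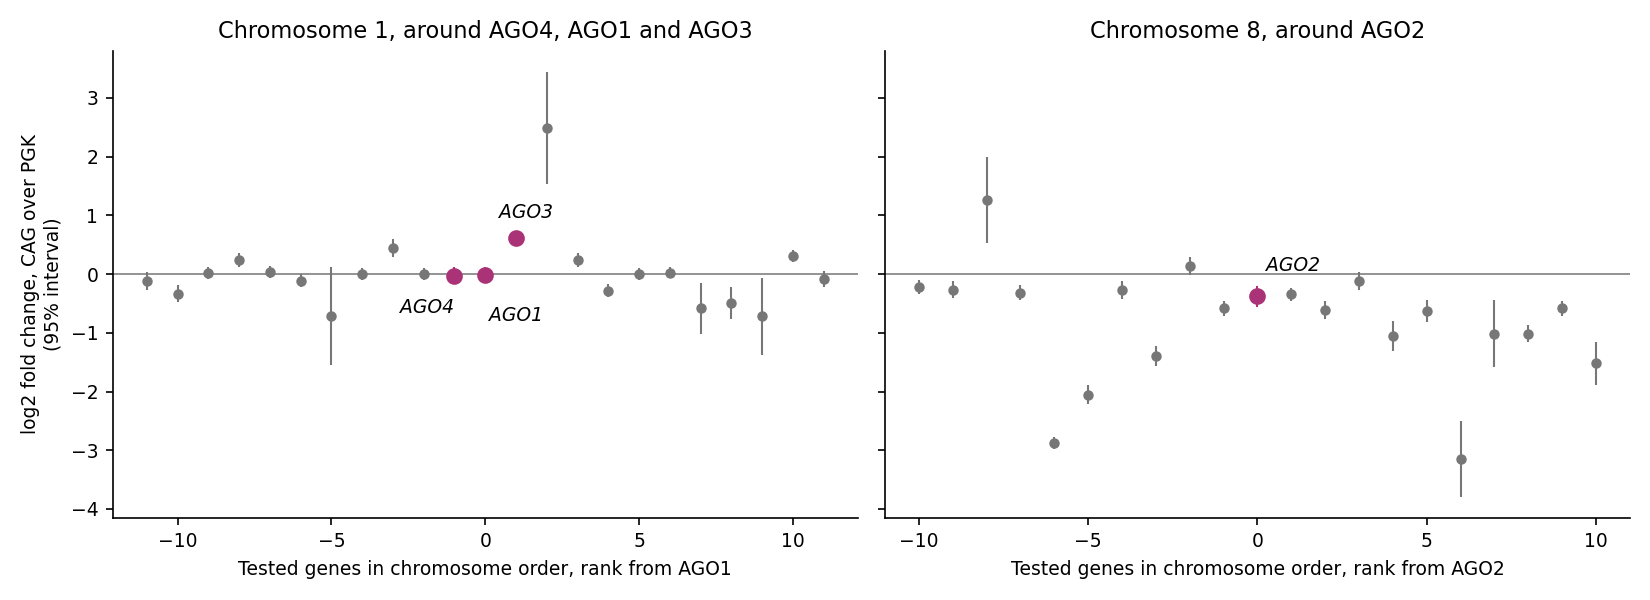
Log2 fold change, CAG over PGK, with its 95% interval (vertical axis) for the tested genes around the AGO4, AGO1 and AGO3 cluster on chromosome 1 (left) and around AGO2 on chromosome 8 (right), by rank in chromosome order. AGO3 at 0.61 departs from AGO4 and AGO1 beside it, while AGO2 sits among genes with a median of -0.60.

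Across the 6 libraries, the tested genes whose log2 CPM followed AGO3 most closely were C2orf15, TXLNA and MED28, each with a Pearson correlation of 1.00 to 2 decimals. The libraries form 2 groups, and 1942 genes had a correlation over 0.95 with AGO3, so this likeness mostly restates the difference between lines.

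Most called cofactors of microRNA biogenesis were lower in the CAG line. Of 24 listed genes 23 were tested, of which 2 were higher and 12 lower (4 and 9 with library size only), with a median log2 fold change of -0.12. Without PGK replicate 1 the counts were 4 higher and 9 lower. The share called, 60.9%, was close to the 62.0% of all tested genes. NCBP2, the small subunit of the nuclear cap-binding complex, fell by 0.79 (SE 0.05), KHSRP, which binds some precursor loops, fell by 0.35 (SE 0.04), and TARBP2, the double-stranded RNA-binding partner of DICER1, fell by 0.34 (SE 0.07). RAN, the GTPase that powers export of precursors by XPO5, rose by 0.51 (SE 0.05), and the helicase DDX17 of the Microprocessor rose by 0.20 (SE 0.04). The medians of the 20 genes nearest to NCBP2 and KHSRP were -0.61 and -0.62, that around RAN was 0.33, and those around TARBP2 and DDX17 were -0.07 and -0.01. For these 5 genes the adjusted p in edgeR's quasi-likelihood test lay between 1.0e-10 (NCBP2) and 9.6e-04 (DDX17).

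Genes that load Argonaute or act with it and the GW182 proteins went both ways. All 32 were tested, with 7 higher, 11 lower (9 and 8 with library size only) and a median of -0.05. The share called was 56.2%, against 62.0% of all tested genes, and without CAG replicate 3 there were 6 higher and 7 lower. The 3 LIM-domain proteins of the AJUBA family, which bridge Argonaute and the cap-binding complex, moved apart. WTIP rose by 1.32 (SE 0.17) from 2.51 to 6.26 CPM and LIMD1 rose by 0.48 (SE 0.05) from 78.8 to 109.8 CPM, while AJUBA fell by 0.63 (SE 0.07) from 43.7 to 28.2 CPM. The value of LIMD1 is uncertain, because 8.12% of its exon bases overlap the antisense gene LIMD1-AS1. PAN3, the subunit through which GW182 proteins bind the PAN2 deadenylase, rose by 0.53 (SE 0.07). FXR1, a relative of FMR1, fell by 0.62 (SE 0.06), and the co-chaperone DNAJB1 fell by 0.36 (SE 0.06), a value that is uncertain because TECR overlaps it on the opposite strand. The medians of the nearest 20 genes were of the same sign for all 6, at 0.75 for WTIP, 0.47 for LIMD1, -0.15 for AJUBA, 0.50 for PAN3, -0.67 for FXR1 and -0.37 for DNAJB1. Their adjusted p in edgeR lay between 1.5e-08 (FXR1) and 6.4e-05 (DNAJB1).

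The 12 tested genes listed for microRNA tailing and turnover had a median log2 fold change of -0.03. Of these, 2 were higher and 1 lower (25%, against 62.0% of all tested genes). This count depended on the fit, since 5 were called without CAG replicate 2. TRIM71, a ubiquitin ligase of stem cells and itself a let-7 target, rose by 0.29 (SE 0.08), and the exonuclease DIS3L2, which degrades uridylated let-7 precursors, rose by 0.25 (SE 0.07). PARN, a poly(A)-specific exonuclease, fell by 0.23 (SE 0.06). Their adjusted p in edgeR was 0.00462, 0.00630 and 0.00154, and the DIS3L2 call was lost without CAG replicate 3 (adjusted p = 0.0552). The uridylyltransferases TUT4 and TUT7, chosen after their values were seen, were not called, with log2 fold changes of 0.04 and -0.16. The medians of the nearest 20 genes were 0.29 for TRIM71, -0.05 for DIS3L2 and 0.05 for PARN.

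**Figure D5:**
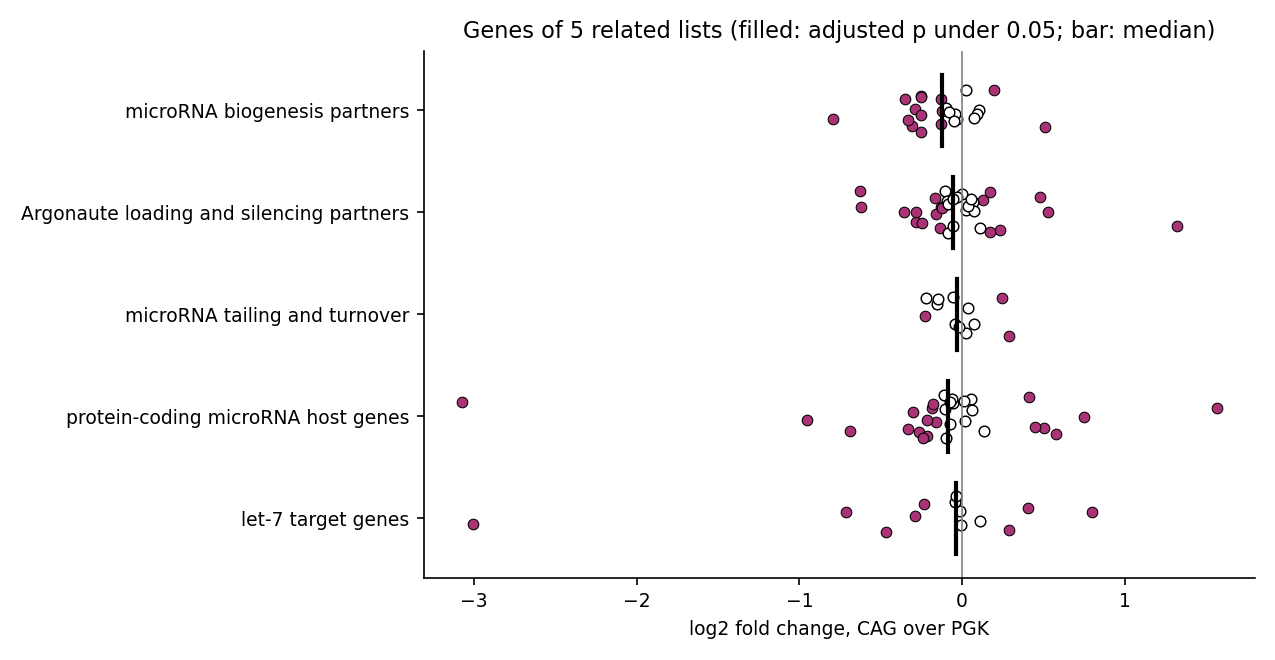
Log2 fold change, CAG over PGK (horizontal axis), of the tested genes of 5 related lists (points, spread vertically only to be visible); filled points passed an adjusted p of 0.05 in edgeR and bars mark list medians. The medians lie between -0.12 and -0.03, and single genes such as GABRE, CCND1, SLIT2 and WTIP lie far from them.

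Protein-coding genes that carry microRNA hairpins were examined because a hairpin on the same strand can be made from the transcript of its host. Of 35 listed genes, 32 hold a mature microRNA of the RefSeq table on their own strand. In this table DNM1 and LARP7 have one on the other strand only, and IGF2 has none within its GENCODE 29 span. The table used is not complete, as it gives the MIR151B hairpin without a mature microRNA. An absence from it, as for IGF2, does not show that a gene holds no microRNA. Of 30 tested, 6 were higher and 12 lower (60.0%, close to the 62.0% of all tested genes), with a median of -0.09. For the 5 hosts that moved most and share a strand with their microRNA, the 3p arms and miR-585 of SLIT3 are left out. Their other mature microRNAs are shown, with seeds (bases 2 to 8) in capitals. They lie on GRCh38.p14 at chr4:20528299-20528319 (plus strand, in SLIT2) and chr5:168768211-168768231 (minus, in SLIT3) for miR-218-5p, chr3:37969413-37969434 (plus, in CTDSPL) for miR-26a-5p, chr3:52268336-52268357 (minus, in the span of WDR82) for let-7g-5p, and chrX:151958628-151958652 and chrX:151959678-151959699 (minus, in GABRE) for miR-224-5p and miR-452-5p.
miR-218-5p: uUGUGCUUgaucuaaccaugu
miR-26a-5p: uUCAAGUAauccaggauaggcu
let-7g-5p: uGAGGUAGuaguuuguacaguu
miR-224-5p: uCAAGUCAcuagugguuccguuuag
miR-452-5p: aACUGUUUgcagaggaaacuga

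The same mature miR-218-5p is encoded in 2 hosts, and these moved in opposite directions. SLIT2, a secreted axon guidance factor, was at 170.2 ± 6.83 CPM in PGK and 504 ± 8.16 in CAG (SD, n = 3), which is higher by 1.57 (SE 0.05) on the log2 scale. SLIT3, its paralogue, was at 7.57 ± 0.0991 CPM in PGK and 4.69 ± 0.272 in CAG, a log2 fold change of -0.69 (SE 0.11). On this scale the SLIT2 transcript was far the more abundant in both lines, although CPM is not corrected for length. CTDSPL, a phosphatase that hosts miR-26a, rose by 0.75 (SE 0.06), and WDR82, a subunit of a histone methyltransferase complex whose span holds let-7g, rose by 0.58 (SE 0.04). GABRE, a GABA-A receptor subunit, was at 1.97 ± 0.0111 CPM in PGK and 0.228 ± 0.0597 in CAG, a log2 fold change of -3.08 (SE 0.28). DNM1, a neuronal dynamin, fell by 0.95 (SE 0.07). The adjusted p of these 6 genes in edgeR's quasi-likelihood test ran from 4.0e-15 for SLIT2 to 1.6e-05 for SLIT3. The nearest 20 genes had a median of 0.31 around SLIT2 and -0.42 around SLIT3, so these neighbourhoods also differed in sign. The medians were 0.34 for CTDSPL, 0.33 for WDR82, 0.37 for GABRE and -0.09 for DNM1. The mature miR-26a-5p is likewise encoded in another listed host, CTDSP2, which was named after its value was seen. CTDSP2 was lower in CAG, by 0.26 (SE 0.05, adjusted p = 1.2e-04 in edgeR's quasi-likelihood test). Its mean level was 98.0 CPM in PGK and 81.7 in CAG, against 32.2 and 54.1 CPM for CTDSPL. Levels of the mature microRNAs were not measured.

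Genes widely described as let-7 targets showed no common direction. Of 13 tested, 3 were higher and 5 lower (61.5%, close to the 62.0% of all tested genes), with a median of -0.04; DICER1, LIN28B and TRIM71 are also members or stand in other lists. CCND1, the cyclin D1 gene, fell by 3.01 (SE 0.07) from 81.4 ± 1.42 to 10.1 ± 1.25 CPM (SD, n = 3), but 10.3% of its exon bases overlap LTO1 on the other strand, so its level is uncertain. IGF2BP2, an mRNA-binding protein, fell by 0.71 (SE 0.05) and MYC, a growth-promoting transcription factor, fell by 0.46 (SE 0.05). ARID3B, a DNA-binding protein, rose by 0.80 (SE 0.05), CDC25A, a cell cycle phosphatase, rose by 0.40 (SE 0.04), and TRIM71 rose as above. The medians of the nearest 20 genes were -0.67 for IGF2BP2, -0.32 for MYC, 0.46 for CDC25A, 0.26 for ARID3B, 0.29 for TRIM71 (equal to its own change) and 0.01 for CCND1. The adjusted p in edgeR ran from 1.8e-16 for CCND1 to 0.00462 for TRIM71.

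The mRNAs of all the members were also searched for the let-7 seed match CTACCTC, the complement of the seed shown for let-7g. That seed is shared by let-7a to let-7g, let-7i and miR-98. The search covered the sense strand of the 3'UTR of the GENCODE 29 transcript with the longest coding sequence. AGO1 and AGO3 held 1 match each, AGO2 held 2, and the other 7 genes held 0. DICER1, which is on the list of let-7 targets above, was thus without a match in the 3'UTR searched. A match was held by 48.2% (AGO1), 49.0% (AGO2) and 51.6% (AGO3) of tested genes with a 3'UTR of like length (0.8 to 1.25 times). A match is thus common in 3'UTRs this long. The mean number of matches in these genes was 0.657 for AGO1, 0.714 for AGO2 and 1.065 for AGO3. The AGO2 sites are not shown. The sites of AGO1 and AGO3, which differed in their change between the lines, are shown with the match in capitals (GRCh38, chromosome 1, plus strand).
AGO1: tctccttattcctcCTACCTCcc
AGO3: atacctgtcctcacCTACCTCac
A match describes the letters of the transcript and does not show that the site is used.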

How the data were processed

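The authors deposited whole-number read counts per Ensembl gene for 6 libraries, not normalized. The submitters' processing notes name featureCounts 2.0.3, HISAT2 2.2.1, Bowtie2 2.5.1 and cutadapt 4.6 and the hg19 genome. Annotation release, strand setting and treatment of multi-mapping reads were not given in the sources used here. GENCODE 29 (GRCh38) served for names, gene order, exon lengths and overlaps; 19346 rows were named. Counts were filtered with filterByExpr, scaled by TMM and compared with edgeR 4.0.16 in R 4.3.3 (quasi-likelihood, robust, two-sided), adjusted by Benjamini-Hochberg over 13103 genes; the common biological coefficient of variation was 0.0494. Each SE was the log2 fold change divided by the root of F. The script was tested on simulated counts.

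Members and lists were chosen with earlier results of these data known. Named were all members, the PIWI clade, genes next to AGO1, AGO3 and AGO4, the 3 genes most like AGO3, and up to 3 called, non-overlapping genes per list and direction with the largest change; others were chosen after their values were seen. Alternatives were 2 other low-count filters, DESeq2 1.42.0, limma-voom (limma 3.58.1), RLE factors, library size alone, a fold of 1.5, a replicate block, each library left out, other neighbour windows and another length.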

Additional observations from a re-analysis of the deposited data

How the results depend on the processing

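The calls of AGO2, AGO3 and TNRC6B kept their direction and side of the threshold in 13 of 14 alternative fits and that of TNRC6A in 11 of 14; all 4 were lost against a fold of 1.5. That test called 1512 genes in place of 8125, 0 of the 10 members, 1 biogenesis partner, 1 loading and silencing partner, 0 tailing genes, 4 host genes and 3 let-7 targets; it asks for a larger change by construction. Samples share only a replicate number: the deviations of same-numbered libraries correlated at 0.108, 0.103 and 0.013, and each library correlated best with its own number, a hint from the data and not the design. With the replicate block, 6 tailing and turnover genes were called in place of 3 (4 lower in place of 1), and biogenesis partners called higher were 4 in place of 2; the total called in each other list, and over all genes, stayed within 1.5 times. Without CAG replicate 2 that count was 5, and over single libraries left out it ran from 2 to 5.

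Signs reversed only for values that had not been called. With library size only, AGO1, AGO4 and DICER1 had log2 fold changes of 0.022, 0.0056 and 0.023. With single libraries left out, the log2 fold change ran from -0.065 to 0.039 for AGO1, -0.057 to 0.011 for AGO4, -0.062 to 0.052 for DICER1 and -0.012 to 0.053 for DROSHA. The log2 shift of the AGO1 to AGO4 ratio then ran from -0.035 to 0.097 and that of DICER1 to DROSHA from -0.094 to 0.055. Neighbour medians moved with 25 genes on each side to -0.45 for AGO2, 0.024 for AGO4, -0.0026 for TNRC6A, -0.0043 for TNRC6B and -0.062 for TNRC6C, and with 5 to -0.020 for TNRC6A, 0.043 for TNRC6B and 0.047 for TNRC6C. On the longest transcript, the shares in PGK and CAG were 64.4% and 69.2% for TNRC6A, 21.2% and 16.3% for TNRC6B, and 14.4% and 14.4% for TNRC6C. The cause of these shifts was not tested. Each member had 477 to 3421 counts per library.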
